A study of Bombus terrestris with 25 samples.

Results

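PEPCK, phosphoenolpyruvate carboxykinase, is the enzyme through which carbon enters gluconeogenesis. Its level was followed here in 25 queens of a bumble bee, Bombus terrestris, known as buff-tailed. All rows of the deposited count table whose gene name holds PEPCK were taken and summed per library. They belong to 1 gene of the 3861 genes in the table, which RefSeq lists by accession as LOC100631088, and no other gene of the table has phosphoenolpyruvate carboxykinase in its product name. PEPCK was among the 3793 genes that passed the filter on low counts.

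PEPCK turns oxaloacetate, an intermediate of the citric acid cycle, into phosphoenolpyruvate. Animals use this step to make glucose from amino acids and lactate, and also to make the glycerol backbone of stored fat when glucose is scarce. In insects the fat body, an organ that combines roles of liver and adipose tissue, makes trehalose, the main sugar of the insect blood, and holds the glycogen and fat on which a diapausing queen lives. Transcription of PEPCK genes in mammalian liver is raised by fasting hormones and lowered by insulin.

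Each library came from the fat body left in the abdominal wall of 1 queen after the gut and other organs were taken out, and there were 5 queens in each of 5 groups. All queens had mated in the laboratory, including the controls. Founders post diapause were egg-laying colony founders of 4 months, sampled about 1 month after a cold period. Founders post CO2 were egg-laying founders of 1.5 months, sampled about 1 month after CO2 treatment. Diapause queens were sampled at the end of 9 to 10 weeks at 4 C, at an age given as 3 months in the sample labels and differently in the series text. CO2-treated queens were 5 to 10 days old and were sampled 24 h after anaesthesia with pure CO2, which was given on the day of mating and again a day later. Mated queens were 5 to 10 days old and had neither treatment. Queens had unlimited sucrose solution and pollen except during the cold. On each route founders were older than the queens sampled at the end of the treatment, and older than the mated queens. Age therefore cannot be told apart from the group, and on the diapause route neither can food and cold. The queens came from genetic line_51, line_141, line_191, line_207 and line_296, with 1 queen per line and group, except that the mated group held line_426 in place of line_51.

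A library held between 534806 and 4057781 counts in the table. CO2-treated replicate 3 and mated replicate 2 were shallow, with 534806 and 586405 counts, while the other 23 libraries had at least 2432559. These shallow libraries were also unusually alike: thinned to the same total, they had a chi-square of 2.39 per degree of freedom, against at least 5.52 in the other pairs. Diapause replicate 1 lay at -4.09 on the first principal component of log2 CPM, against -73.5 to -45.7 in the other 4 diapause libraries and 5.85 to 104 in the founders. Its PEPCK level, by contrast, lay with those of the other diapause queens. Values without these libraries are given where they touch a result. Replicates were single queens, so p-values measure the spread between queens.

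In the table, PEPCK consists of 6 exon-sized intervals on scaffold Group3.4, spanning positions 600027 to 605477 with 2001 bases in all. Coordinates are counted from 1 and neither the genome build of the table nor the strand is stated in the sources used here. The intervals are 600027 to 600293, 600427 to 600774, 601149 to 601543, 601841 to 602025, 602654 to 602911 and 604930 to 605477. The sources used here do not say which parts of them are coding or untranslated. The gene collected 287709 counts over the 25 libraries, from 28 in founder post CO2 replicate 4 to 40089 in CO2-treated replicate 1.

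Levels are given as CPM, which are counts divided by the TMM-scaled total of the library in the table and set to 1 common size. Founders post diapause had 19.7, 192, 84.7, 394 and 25.0 CPM of PEPCK. Founders post CO2 had 21.3, 260, 17.3, 6.57 and 21.7 CPM. The 10 founders thus lay between 6.57 and 394 CPM, and founder post CO2 replicate 2 stood above the other 4 of its group.

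Diapause queens had 7711, 12688, 11462, 10192 and 9942 CPM of PEPCK. CO2-treated queens had 12578, 6627, 450, 5287 and 2969 CPM. Mated queens had 1639, 431, 3970, 7754 and 1382 CPM. Every one of these 15 libraries was above every founder, although the lowest of them, the shallow libraries at 450 and 431 CPM, came close to the highest founder. With the shallow libraries set aside, the lowest queen that was not a founder had 1382 CPM.

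**Figure D1:**
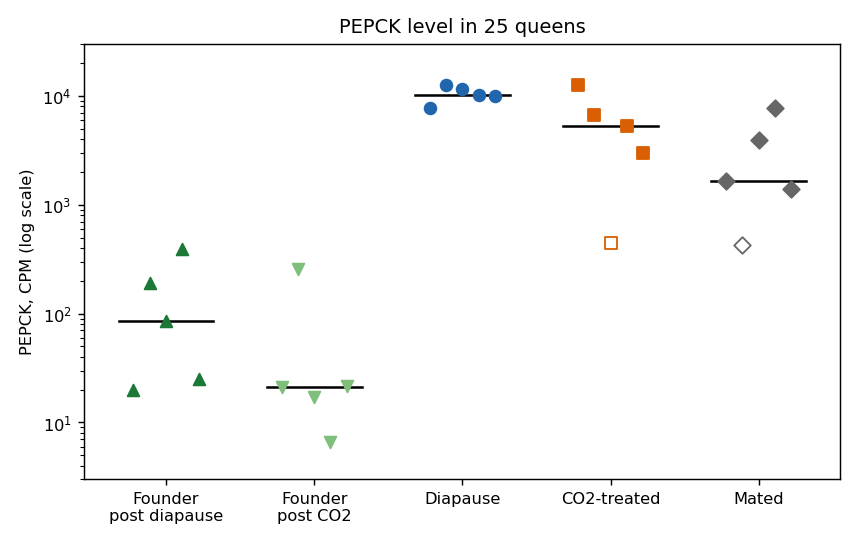
PEPCK level in CPM on a log axis for each of 25 queens in 5 groups; points are single libraries, open points the 2 shallow libraries and lines the group medians. Founders lie between 6.57 and 394 CPM and the other queens between 431 and 12688 CPM, with the 5 diapause queens close together.

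Group means were 143 ± 156 CPM in founders post diapause, 65.3 ± 109 in founders post CO2, 10399 ± 1860 in diapause queens, 5582 ± 4563 in CO2-treated queens and 3035 ± 2941 in mated queens (SD, n = 5 each). Without the shallow libraries the means were 6865 ± 4097 CPM in CO2-treated and 3686 ± 2951 CPM in mated queens (SD, n = 4 each). The order of the group means was therefore diapause, CO2-treated, mated, founders post diapause and founders post CO2. Only the step between mated queens and founders post diapause was free of overlap. There the lowest mated queen, a shallow library, had 431 CPM and the highest founder 394 CPM. The neighbours above this step, and the founder groups below it, overlapped.

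The spread between queens of 1 group differed widely. The highest diapause queen had 1.65 times the CPM of the lowest, while this ratio was 19.9 in founders post diapause, 39.5 in founders post CO2, 28.0 in CO2-treated and 17.97 in mated queens. On the log2 scale the SD was 0.27 in diapause queens, against 1.84 in founders post diapause, 1.92 in founders post CO2, 1.83 in CO2-treated and 1.59 in mated queens. It was 0.86 in CO2-treated and 1.16 in mated queens without the shallow libraries. The difference in spread itself was not tested. PEPCK also passed a joint F test over all 5 groups (F = 15.6, edgeR adjusted p = 2.33e-05), as did 79% of all genes, and it ranked 269th by F.

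Set against the other genes per length, PEPCK was among the most abundant transcripts of the table in every group except the founders. Its mean of 5197 CPM per kb ranked 1st of 3861 genes in diapause queens. It ranked 4th in CO2-treated queens, with 2790 CPM per kb, and 21st in mated queens, with 1517. It ranked 1256th in founders post diapause, with 71.5 CPM per kb, and 1899th in founders post CO2, with 32.6. In diapause queens the gene alone took between 0.870% and 1.20% of the counts of a library.

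The question of how a founder differs from a queen at the end of the treatment was addressed first. PEPCK was lower in founders on both routes. In bulk tissue, fewer cells of a type and less RNA per cell cannot be told apart. In founders post diapause against diapause queens the log2 fold change was -6.18 (SE 1.14, 5 queens per group), a 72.6-fold lower level, with an edgeR adjusted p of 8.89e-05 after Benjamini-Hochberg adjustment over all genes. In founders post CO2 against CO2-treated queens it was -6.42 (SE 1.16, 5 queens per group), an 85.4-fold lower level, with an edgeR adjusted p of 0.000527. In neither comparison did the groups overlap, and the exact permutation test, two-sided over 252 splits, gave the smallest p it can give, 0.00794, in each.

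Most genes changed on the diapause route, so a call there says little by itself: 80.9% of the genes tested were called in either direction and 40.6% were called lower. On the CO2 route 28.3% were called and 13.6% were called lower. By size, however, PEPCK had the 4th lowest log2 fold change of 3793 genes in founders post diapause against diapause queens and the 2nd lowest in founders post CO2 against CO2-treated queens. The median over all genes was 0.28 in the diapause route and 0.07 in the CO2 route, and 0.32 and 0.11 with the scaling of DESeq2.

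These sizes depend on single queens. Without founder post CO2 replicate 2, the founder with 260 CPM, the log2 fold change against CO2-treated queens was -8.38, and without CO2-treated replicate 1, the highest of its group, it was -5.78. Without founder post diapause replicate 4, at 394 CPM, the log2 fold change against diapause queens was -7.01. The call held each time. Leaving out the shallow libraries gave -6.15 on the diapause route and -6.63 on the CO2 route.

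Queens of the same genetic line showed the same direction. Founders post diapause were lower than the diapause queen of their line in 5 of 5 lines, with log2 differences between -8.96 in line_207 and -5.01 in line_51. Founders post CO2 were lower than the CO2-treated queen of their line in 5 of 5 lines, with log2 differences between -10.76 in line_207 and -4.33 in line_51, where the CO2-treated queen is a shallow library. Line_191, which holds the founder with 260 CPM, had a difference of -4.34 on this route.

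**Figure D2:**
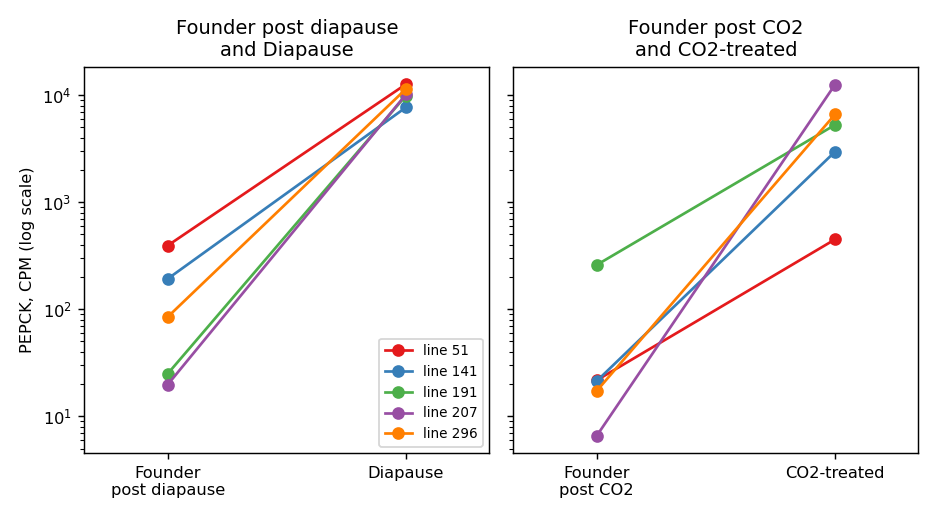
PEPCK in CPM on a log axis in founders and in the queens of the same genetic line sampled at the end of the treatment, for the diapause route (left panel) and the CO2 route (right panel); each line joins 2 different queens of 1 genetic line. The founder is lower in 5 of 5 lines on each route, and the lines differ more among founders than among diapause queens.

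Founders were also lower than young mated queens. The log2 fold change was -4.41 ± 1.05 in founders post diapause (SE, edgeR adjusted p = 0.00168) and -5.54 ± 1.11 in founders post CO2 (SE, edgeR adjusted p = 0.000749). These comparisons share the mated queens. In them 35.8% and 19.6% of all genes tested were called lower. Each was lower in 4 of 4 lines that both groups held. Without mated replicate 4, the highest of its group, the values were -3.76 in founders post diapause and -4.79 in founders post CO2, and both calls held. The first was -5.24 with founder post diapause replicate 4 left out, and the second -7.51 with founder post CO2 replicate 2 left out.

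Across the routes, founders post diapause had less PEPCK than CO2-treated queens, with a log2 fold change of -5.28 ± 1.10 (SE, edgeR adjusted p = 0.00105), or -6.11 without founder post diapause replicate 4. In that comparison 33.2% of genes were called lower. In line_51 the difference was only -0.19, between the founder with 394 CPM and the shallow CO2-treated library with 450 CPM. Diapause queens exceeded founders post CO2 by 7.31 ± 1.20 (SE, edgeR adjusted p = 7.56e-05), or 9.28 without founder post CO2 replicate 2. In that comparison 34.6% of genes were called higher. Here the diapause queens were the older, at 3 months by the sample labels, against 1.5 months in founders post CO2.

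Whether cold or CO2 moved PEPCK away from its level in a young mated queen was asked next. Diapause queens had a higher mean than mated queens, with a log2 fold change of 1.78 ± 0.94 (SE, n = 5 per group) and a 95% interval from -0.16 to 3.71. It did not pass, with an edgeR adjusted p of 0.259, in a comparison that called 3.66% of genes higher. The exact permutation test on mean log2 CPM, two-sided and not adjusted, gave a difference of 2.38 with p = 0.0159, beside an unadjusted edgeR p of 0.0705. The groups overlapped in 1 pair of libraries, mated replicate 4 at 7754 CPM being above diapause replicate 1 at 7711 CPM, both of line_141. The other 3 lines were higher in diapause, by up to 4.56 in line_207, whose mated queen is a shallow library. Without the shallow libraries the log2 fold change was 1.49, with an edgeR adjusted p of 0.306, and without mated replicate 4 it was 2.45.

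CO2-treated queens exceeded mated queens by a log2 fold change of 0.88 ± 0.92 (SE, n = 5 per group, edgeR adjusted p = 1.00), with a 95% interval from -1.02 to 2.77. The exact permutation test, two-sided, gave p = 0.444. In that comparison 0.395% of genes were called, none of them higher in edgeR, while 33 had a higher value at an unadjusted p under 0.05 and DESeq2 called 3 higher. CO2-treated queens were higher in 3 of 4 lines, between 0.41 in line_191 and 4.86 in line_207, whose mated queen is a shallow library, and line_141 had -1.38. Both shallow libraries are in this comparison. Over the alternatives, fits without them included, the log2 fold change ranged from 0.86 to 1.22 and was never called. Without mated replicate 4 the log2 fold change was 1.59, still not called.

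Diapause queens exceeded CO2-treated queens by 0.90 ± 0.92 (SE, n = 5 per group, edgeR adjusted p = 0.549), with a 95% interval from -0.997 to 2.79. The exact permutation test, two-sided, gave p = 0.0556. In that comparison 5.64% of genes were called higher. Diapause queens were higher in 4 of 5 lines, and line_207 had -0.30. The log2 fold change was 0.55 without the shallow libraries.

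Whether the routes lead to different PEPCK levels was asked last. Founders post diapause exceeded founders post CO2 by a log2 fold change of 1.13 ± 0.93 (SE, n = 5 per group, edgeR adjusted p = 0.651), with a 95% interval from -0.78 to 3.04, and the exact permutation test, two-sided, gave p = 0.230. They were higher in 4 of 5 lines, by 1.49 to 4.14, and line_191 had -3.34. Leaving out founder post CO2 replicate 2 gave 3.10, leaving out founder post diapause replicate 4 gave 0.30, and neither was called. In that comparison edgeR called 0 of 3793 genes, while 273 had an unadjusted p under 0.05 and DESeq2 called 8.

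The difference in PEPCK between founders and the queens at the end of their treatment was also compared between the routes. The change on the diapause route less the change on the CO2 route was 0.23 ± 1.29 (SE, edgeR adjusted p = 0.911), with a 95% interval from -2.43 to 2.89. Its sign depended on single queens, at 2.20 when founder post CO2 replicate 2 was left out and -0.60 when founder post diapause replicate 4 was. The interval leaves room for a difference of several fold either way. Of all genes, 2.43% were called in this test.

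All 6 intervals of PEPCK moved together between founders and the queens at the end of the treatment. Against mated queens the sixth interval rose less. Its log2 ratio was 0.48 in CO2-treated over mated queens, against 0.89 to 0.94 in the other 5. In diapause over mated queens it was 1.47, against 1.79 to 1.85. In founders post diapause against diapause queens the log2 ratio of mean CPM lay between -6.36 and -6.04 over the intervals, and in founders post CO2 against CO2-treated queens between -6.57 and -6.25. The intervals of 1 gene are not replicates. The sixth interval had the fewest counts per base in every group, for example 2002 CPM per kb in diapause queens, where the other 5 had between 6084 and 6975.

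The share of the gene that each interval took was similar across groups, except that the sixth took more in mated queens. The third interval held 25.6% of PEPCK counts in founders post diapause, 23.8% in founders post CO2, 23.5% in diapause, 24.1% in CO2-treated and 23.1% in mated queens. The sixth held 9.26% in founders post diapause, 9.00% in founders post CO2, 10.5% in diapause, 9.85% in CO2-treated and 13.1% in mated queens. Its share in single mated queens lay between 10.4% and 14.0%, and in single diapause queens between 8.89% and 12.3%. In founder libraries with few counts single shares were erratic: the fourth interval had no read among the 28 PEPCK counts of founder post CO2 replicate 4.

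The table places LOC100644008, a hypothetical gene, 570 bases from PEPCK at positions 587352 to 599456 of the same scaffold. Its last interval, from 591582 to 599456, is 7875 bases long and held 98.6% of the counts of the gene. Over the groups this interval followed PEPCK closely. Its mean was 108 CPM in founders post diapause, 65.4 in founders post CO2, 5264 in diapause, 2577 in CO2-treated and 1520 in mated queens. Of the 3792 other genes tested, LOC100644008 had the highest correlation with PEPCK over the 25 libraries.

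The other 11 intervals of LOC100644008 did not share this pattern. Pearson's r with PEPCK, over 25 libraries that share groups and preparation, was 0.99 for the last interval (Spearman's rho 0.99) and 0.44 for the other 11 summed (rho 0.48). With group means subtracted, r was 0.94 for the last interval and -0.02 for the others. Those 11 intervals together had only 1988 counts over 3012 bases in all libraries.

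In the queens that were not founders, the last interval held between 0.432 and 0.715 times the CPM of PEPCK. In founders it held between 0.617 and 6.04 times, the highest being in founder post CO2 replicate 4, the library with 28 PEPCK counts. Which transcript the reads of the last interval came from was not tested. The neighbour on the other side, LOC100644123, a UPF0183 protein 8734 bases away, had an r of -0.06 with PEPCK.

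**Figure D3:**
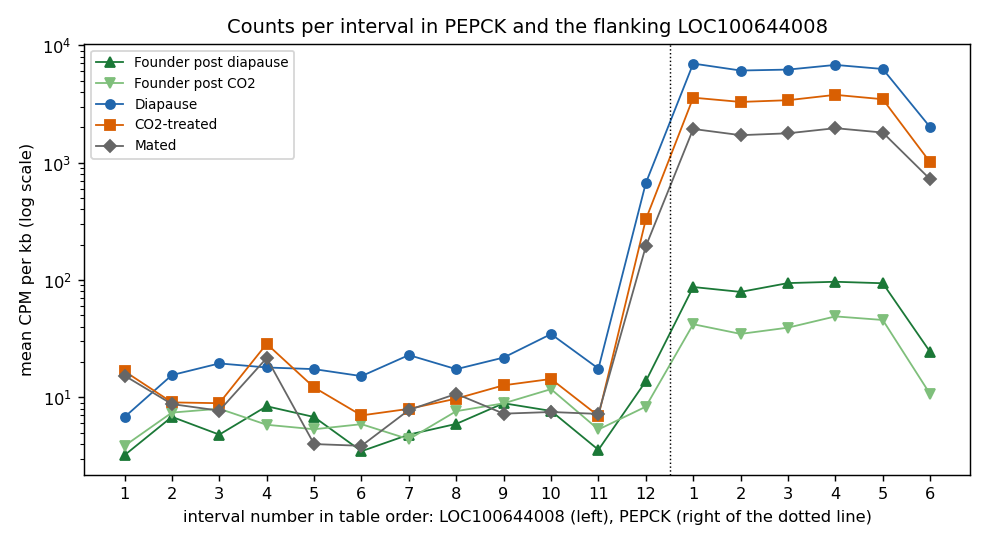
Mean CPM per kb on a log axis for the 12 intervals of LOC100644008 and the 6 of PEPCK, in the order of the table and not to scale, with 1 line per group. PEPCK and the last interval of LOC100644008 separate the founders from the other groups by far more than the first 11 intervals of LOC100644008 do.

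**Figure D4:**
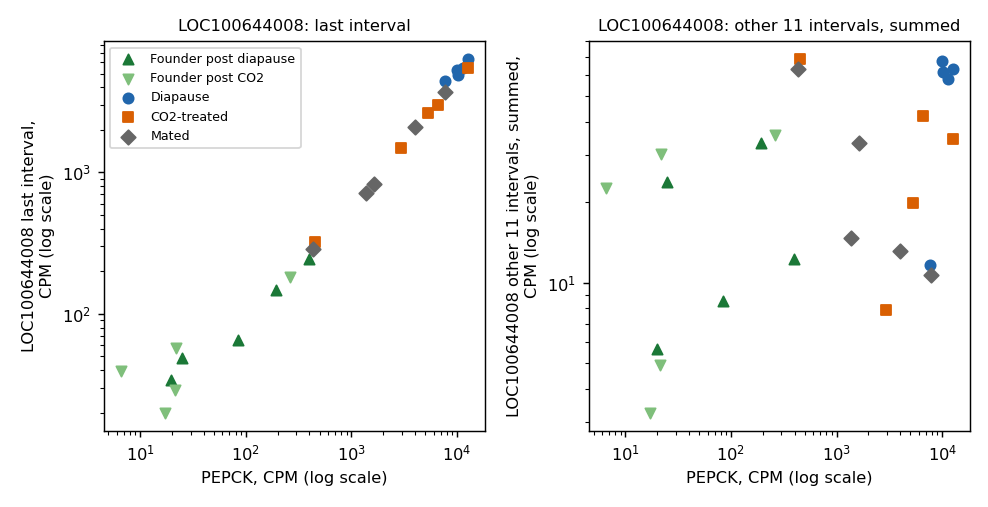
PEPCK in CPM (horizontal, log axis) against the last interval of LOC100644008 (left panel) and its other 11 intervals summed (right panel), in CPM on log axes; each point is 1 of 25 libraries. The last interval rises with PEPCK over the 25 libraries (r = 0.99), and the other 11 do so weakly (r = 0.44). Among the founders the relation is looser: the founder lowest in PEPCK, at 6.57 CPM, has 39.6 CPM in the last interval.

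Among the other genes with a product name, those most like PEPCK over the 25 libraries, by Pearson's r of log2 CPM, were an organic cation transporter (LOC100648294, r = 0.94), the netrin receptor UNC5C-like gene (LOC100642219, r = 0.92), the muscle LIM protein Mlp84B (LOC100646273, r = 0.90) and an acetylcholine receptor subunit alpha (LOC100648987, r = 0.89). They were followed by the lipid transporter family gene ABCG1-like (LOC100644985, r = 0.89), the fatty acyl-CoA reductases CG5065-like (LOC100647527, r = 0.89) and 1-like (LOC100642508, r = 0.87), and lipid storage droplets surface-binding protein 2, a coat protein of fat droplets (LOC100643850, r = 0.87). Genes with a product name and the most opposite patterns were zinc finger protein 2-like (LOC100645424, r = -0.89), a peroxidase (LOC100646227, r = -0.89), 15-hydroxyprostaglandin dehydrogenase (LOC100643900, r = -0.89) and maelstrom, a germ line protein in Drosophila (LOC100644702, r = -0.88). Of 3792 genes, 189 had an r of at least 0.8 in size and 5 of at least 0.9, 3 of these having no product name, among them the lowest r of all, -0.92, and the median r was -0.08. The libraries share their groups, so these values hold the difference between founders and the other queens.

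With the group means subtracted, the order was another one. The highest among named genes other than the flanking gene were a hexamerin, an amino acid storage protein (LOC100650745, r = 0.78), a short-chain dehydrogenase/reductase of family 16C (LOC100652085, r = 0.76), cytosolic purine 5'-nucleotidase (LOC100642349, r = 0.73), xanthine dehydrogenase, which makes uric acid (LOC100650366, r = 0.71), and cytochrome P450 6k1 (LOC100648391, r = 0.70). Without the shallow libraries and diapause replicate 1 these were 0.73, 0.69, 0.69, 0.52 and 0.53. The hexamerin fell in founders on both routes, with log2 fold changes of -2.91 ± 1.14 in founders post diapause against diapause queens (edgeR adjusted p = 0.0231) and -4.73 ± 1.24 in founders post CO2 against CO2-treated queens (edgeR adjusted p = 0.00947). The first of these calls was lost without founder post diapause replicate 1 or replicate 5.

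PEPCK stands at the head of a pathway whose other genes, as far as the table holds them, did not all move with it. The list of gluconeogenesis and glycolysis held 9 other genes, of which 8 were tested. The search by name found no pyruvate carboxylase, glucose-6-phosphatase, phosphofructokinase, pyruvate kinase, fructose-bisphosphate aldolase or phosphoglycerate kinase. Much of the pathway is therefore not covered, and fructose-1,6-bisphosphatase is the only other listed enzyme of the glucose-making direction alone. In founders post diapause against diapause queens 6 rose and 2 fell, with a median log2 fold change of 1.81, beside 40.2% of all genes higher, 40.6% lower and a median of 0.28. In founders post CO2 against CO2-treated queens 3 rose and 1 fell, with a median of 0.68, beside 14.8% higher, 13.6% lower and a median of 0.07. These last counts rest on few queens: none was called without CO2-treated replicate 2, 1 rose and 1 fell without CO2-treated replicate 3 or without founder post CO2 replicate 3, and 1 rose and 2 fell without the shallow libraries. With only the groups compared in the fit 1 rose and 0 fell.

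Fructose-1,6-bisphosphatase (LOC100650704), like PEPCK an enzyme of the glucose-making direction alone, fell with it on the diapause route. It had 665, 283, 541, 242 and 318 CPM in founders post diapause, against 717, 2335, 3126, 1746 and 4770 CPM in diapause queens. The lowest of these diapause queens is diapause replicate 1, and the groups did not overlap. The log2 fold change was -2.63 ± 0.88 (SE, edgeR adjusted p = 0.00983).

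On the CO2 route fructose-1,6-bisphosphatase had 268, 320, 394, 106 and 29.3 CPM in founders post CO2, against 677, 722, 18.7, 1442 and 641 CPM in CO2-treated queens. The shallow CO2-treated library had the lowest value of all 10, and the other 4 lay above every founder. The log2 fold change of -1.65 ± 0.86 was not called (SE, edgeR adjusted p = 0.131). Without the shallow libraries it was -1.98 and called (edgeR adjusted p = 0.0213). It was called in only 3 of 8 alternative fits, each without both shallow libraries. Of the 25 fits that left out 1 library, the shallow CO2-treated library among them, 0 called it. Over 25 libraries the r of this gene with PEPCK was 0.61, or 0.79 without the shallow libraries and diapause replicate 1, and 0.54 with group means subtracted.

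Hexokinase type 2 (LOC100644228), which opens glycolysis by phosphorylating glucose, also fell. It averaged 275 ± 115 CPM in founders post diapause, against 1237 ± 250 CPM in diapause queens, and 334 ± 149 CPM in founders post CO2, against 854 ± 237 CPM in CO2-treated queens (SD, n = 5 each). The log2 fold changes were -2.17 ± 0.39 on the diapause route (edgeR adjusted p = 7.29e-05) and -1.36 ± 0.38 on the CO2 route (edgeR adjusted p = 0.0142). The call on the CO2 route was lost without CO2-treated replicate 2 and in 2 of 8 alternative fits. Its r with PEPCK was 0.87.

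L-lactate dehydrogenase (LOC100649579), which interconverts pyruvate and lactate, rose. It had 824, 1050, 867, 265 and 230 CPM in founders post diapause, against 66.1, 115, 284, 75.6 and 58.7 CPM in diapause queens. It had 457, 894, 1196, 1577 and 723 CPM in founders post CO2, against 101, 50.2, 470, 30.0 and 51.1 CPM in CO2-treated queens. Groups overlapped on both routes, on the CO2 route only through the shallow library at 470 CPM, and the shallow mated library had 512 CPM where the other mated queens had at most 92.9.

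The log2 fold change of L-lactate dehydrogenase was 2.43 ± 0.80 on the diapause route (edgeR adjusted p = 0.00861) and 2.81 ± 0.82 on the CO2 route (edgeR adjusted p = 0.0168), which became 4.08 on the CO2 route without the shallow libraries and was not called without CO2-treated replicate 2. Its r with PEPCK was -0.82. The reversible enzymes that serve both directions of the pathway rose on the diapause route, among them glyceraldehyde-3-phosphate dehydrogenase (LOC100648830, log2 1.86 ± 0.40), enolase (LOC100648533, 1.76 ± 0.41), phosphoglycerate mutase 2 (LOC100651143, 2.53 ± 0.49), glucose-6-phosphate isomerase (LOC100643448, 1.95 ± 0.44) and triosephosphate isomerase (LOC100645419, 1.01 ± 0.39). The edgeR adjusted p of these 5 was at most 0.0206. On the CO2 route the first 2 were called, with log2 1.22 ± 0.39 and 1.16 ± 0.40, but in only 4 of 8 alternative fits each, and not without the shallow libraries. The other 3 were not called, at 0.81 ± 0.47, 0.55 ± 0.42 and 0.24 ± 0.38.

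**Figure D5:**
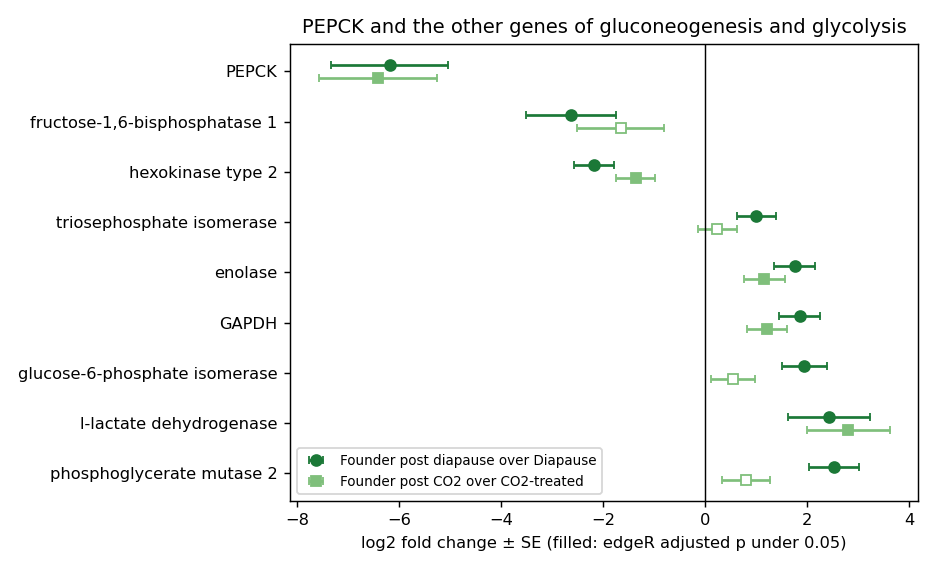
Log2 fold change with SE of PEPCK and the 8 tested genes of gluconeogenesis and glycolysis, in founders post diapause over diapause queens (circles) and founders post CO2 over CO2-treated queens (squares), n = 5 per group; filled symbols have an edgeR adjusted p under 0.05. PEPCK lies at -6.18 and -6.42, fructose-1,6-bisphosphatase (not called on the CO2 route) and hexokinase are lower too, and the other 6 are higher or not called.

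The citric acid cycle and its feeders supply the oxaloacetate that PEPCK uses. Of 23 genes, 14 rose and 3 fell in founders post diapause against diapause queens, with a median log2 fold change of 1.08, beside 40.2% of all genes higher and 40.6% lower. In founders post CO2 against CO2-treated queens 2 rose and 2 fell, with a median of 0.37, beside 14.8% of all genes higher and 13.6% lower. Several genes of the list are named malate dehydrogenase, an enzyme that makes oxaloacetate, and only 1 of them is described here. This gene, a probable mitochondrial malate dehydrogenase (LOC100650538), fell on both routes. Its log2 fold changes were -2.67 ± 0.52 on the diapause route and -2.54 ± 0.52 on the CO2 route (SE, edgeR adjusted p = 0.000145 and 0.00185). The mitochondrial dicarboxylate carrier (LOC100642743), which exchanges malate and related acids for phosphate, rose by 3.81 ± 0.58 on the diapause route and 1.62 ± 0.53 on the CO2 route (SE, edgeR adjusted p = 1.84e-05 and 0.0281). Its call on the CO2 route was lost in 3 of 8 alternative fits, and without any one of CO2-treated replicates 1, 2 and 3 and founder post CO2 replicates 1 and 3. With the shallow libraries left out, edgeR called 0 genes of the list higher and 2 lower on the CO2 route, and DESeq2 on all libraries called 3 in each direction.

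The list of glycerol and glyceride-glycerol genes, a use of PEPCK carbon other than sugar, held 9 genes. On the diapause route 3 rose and 2 fell, with a median of 0.39, beside 40.2% of all genes higher and 40.6% lower, and on the CO2 route 1 rose and 2 fell, with a median of -0.05, beside 14.8% and 13.6%. Without the shallow libraries 3 rose and 3 fell on the diapause route, and 1 rose and 1 fell on the CO2 route. Lipid storage droplets surface-binding protein 2 fell, with log2 fold changes of -4.04 ± 0.66 on the diapause route and -2.96 ± 0.63 on the CO2 route (SE, edgeR adjusted p = 3.25e-05 and 0.00221). 1-acyl-sn-glycerol-3-phosphate acyltransferase alpha (LOC100650358), which adds the second fatty acid to glycerol phosphate, rose by 2.25 ± 0.39 on the diapause route and 1.70 ± 0.38 on the CO2 route (SE, edgeR adjusted p = 4.82e-05 and 0.00342). More than 1 gene of the list is named putative glycerol kinase 3, of the enzymes that phosphorylate free glycerol. The only one described here, LOC100643107, had -0.88 ± 0.44 on the diapause route and -1.18 ± 0.44 on the CO2 route (SE, edgeR adjusted p = 0.0693 and 0.0481). Its call on the CO2 route is marginal: it was lost in 6 of 8 alternative fits, RLE scaling and no filter among them, and in 20 of the 25 fits that left out 1 library.

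The list of glycogen and trehalose held 22 genes, of which 21 were tested and 18 are facilitated trehalose transporters of the Tret1 kind, so it speaks mostly of sugar transport. On the diapause route 10 rose and 6 fell, with a median of 1.25, beside 40.2% of all genes higher and 40.6% lower. On the CO2 route 5 rose and 2 fell, with a median of 0.08, beside 14.8% and 13.6%, or 5 and 0 without the shallow libraries. Transporter LOC100644978 rose by 4.11 ± 0.62 on the diapause route and 5.14 ± 0.66 on the CO2 route (SE, edgeR adjusted p = 1.72e-05 and 1.98e-05). Transporter LOC100650588 fell, with log2 fold changes of -3.16 ± 0.53 on the diapause route and -1.46 ± 0.51 on the CO2 route (SE, edgeR adjusted p = 3.90e-05 and 0.0374). The call on the CO2 route was lost in 5 of 8 alternative fits, and without any one of CO2-treated replicates 2 and 3 and founder post CO2 replicates 1, 2 and 3.

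Regulators of fasting and fed metabolism, such as members of the insulin, TOR, cyclic AMP and ecdysone pathways, numbered 24. On the diapause route 4 rose and 19 fell, with a median of -1.70, beside 40.2% of all genes higher and 40.6% lower. On the CO2 route 1 rose and 3 fell, with a median of -0.67, beside 14.8% and 13.6%. Without the shallow libraries none rose and 1 fell on the CO2 route in edgeR, while DESeq2 on all libraries called 3 higher and 7 lower. The gonadotropin-releasing hormone receptor-like gene (LOC100645456), of the receptor family that includes the insect receptor for the fat-mobilising adipokinetic hormone, fell, with log2 fold changes of -2.67 ± 0.53 on the diapause route and -1.99 ± 0.51 on the CO2 route (SE, edgeR adjusted p = 0.000168 and 0.00872). 3-phosphoinositide-dependent protein kinase 1 (LOC100649731), an activating kinase of the insulin pathway, fell, with log2 fold changes of -2.65 ± 0.49 on the diapause route and -1.65 ± 0.47 on the CO2 route (SE, edgeR adjusted p = 8.92e-05 and 0.0158). On the CO2 route the call of the receptor was lost in 1 of 8 alternative fits, and that of the kinase in 4 of 8 and without CO2-treated replicate 3.

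Between diapause and the young groups few members of these lists were called with all libraries in the fit. In diapause against mated queens no gene of gluconeogenesis and glycolysis or of glycogen and trehalose was called by edgeR. Of the citric acid cycle 1 rose and 1 fell, of the glycerol list 0 rose and 2 fell, and of the regulators 1 rose and 0 fell, beside 5.69% of all genes, 3.66% higher and 2.03% lower. DESeq2 called 5 regulators higher and 1 lower, 1 gene of the citric acid cycle higher and 3 lower, 0 and 2 of the glycerol list, 0 and 1 of gluconeogenesis and glycolysis, and none of glycogen and trehalose.

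These counts depend on the libraries that stand apart. Without the shallow libraries and diapause replicate 1, 0 genes of gluconeogenesis and glycolysis rose and 3 of 8 fell in diapause against mated queens. Of the citric acid cycle 1 rose and 10 of 23 fell, of the glycerol list 0 rose and 4 of 9 fell, of glycogen and trehalose 2 rose and 2 fell, and of the regulators 7 of 24 rose and 5 fell. In that fit 13.6% of all genes were called higher and 17.9% lower. PEPCK itself was not called there, with a log2 fold change of 1.55 and an edgeR adjusted p of 0.246.

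In diapause against CO2-treated queens 1 gene of the citric acid cycle rose and 1 fell, 1 of glycogen and trehalose rose and 1 fell, 3 regulators rose and the other lists had no call, beside 6.43% of all genes, 5.64% higher and 0.791% lower. With the shallow libraries and diapause replicate 1 left out, 1 gene of gluconeogenesis and glycolysis rose and 2 fell, 1 of the citric acid cycle rose and 14 fell, 0 of the glycerol list rose and 3 fell, 5 of glycogen and trehalose rose and 2 fell, and 5 regulators rose and 3 fell, beside 15.9% of all genes higher and 20.6% lower. In CO2-treated against mated queens 1 gene of glycogen and trehalose fell and no other member was called by edgeR, beside 0.395% of all genes lower, while DESeq2 called 1 glycerol gene lower as well.

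Markers of cell types moved with the founders as well. The fat body list, vitellogenin-6-like and both hexamerins, summed to between 106 and 475 CPM in founders post diapause, 59.1 and 1108 in founders post CO2, 3402 and 10324 in diapause, 230 and 19003 in CO2-treated and 213 and 46181 in mated queens. None of the 3 was at 0 in all libraries, and they did not move as 1. On the diapause route 0 rose and 2 fell, and on the CO2 route 1 rose and 1 fell. Vitellogenin-6-like (LOC100643258), a yolk protein gene, had -8.06 ± 1.11 on the diapause route (SE, edgeR adjusted p = 9.46e-06) and -2.21 ± 0.86 on the CO2 route (SE, edgeR adjusted p = 0.0562). The hexamerin LOC100650380, at a mean of at most 19.4 CPM in any group, had 0.99 ± 0.49 on the diapause route (SE, edgeR adjusted p = 0.0634) and rose by 1.72 ± 0.48 on the CO2 route (SE, edgeR adjusted p = 0.0142), a call lost without founder post CO2 replicate 3 and in 2 of 8 alternative fits.

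The summed level of 23 gut markers lay between 4599 and 48083 CPM in founders post diapause and 4243 and 11327 in founders post CO2, against 1269 to 5639 in diapause, 2069 to 19509 in CO2-treated and 1332 to 4397 in mated queens. Of these 23, 15 rose and 1 fell on the diapause route, and 5 rose and 0 fell on the CO2 route. With single libraries left out, 7 to 17 rose on the diapause route and 3 to 6 on the CO2 route.

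The 9 muscle markers summed to 7985 to 20921 CPM in founders post diapause and 4391 to 12534 in founders post CO2, against 13909 to 35736 in diapause, 17037 to 26826 in CO2-treated and 13607 to 37048 in mated queens. Their members went both ways: 3 rose and 4 fell on the diapause route, with a median log2 fold change of 1.23 although the summed level ranged lower, with overlap, and 1 rose and 4 fell on the CO2 route, with a median of -1.44. The 39 oenocyte and epidermis markers summed to 34771 to 78719 CPM in founders post diapause and 23364 to 70648 in founders post CO2, against 13280 to 27489 in diapause, 23208 to 36957 in CO2-treated and 22815 to 42156 in mated queens. Of the 37 tested, 18 rose and 11 fell on the diapause route, with a median of 1.10, and 4 rose and 8 fell on the CO2 route, with a median of 0.03.

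The 11 neuron markers summed to 310 to 1010 CPM in founders post diapause and 270 to 552 in founders post CO2, against 852 to 1541 in diapause, 666 to 1201 in CO2-treated and 977 to 1336 in mated queens. Of the 10 tested, 1 rose and 5 fell on the diapause route, and 0 rose and 6 fell on the CO2 route. The 4 germ line and ovary markers summed to 106 to 1134 CPM in founders post diapause and 451 to 2497 in founders post CO2, against 293 to 1061 in diapause, 188 to 464 in CO2-treated and 246 to 521 in mated queens. Of them 2 rose and 2 fell on the diapause route, and 2 rose and 0 fell on the CO2 route. The summed level of the 8 hemocyte markers overlapped across all groups, but 1 rose and 5 fell on the diapause route, with a median of -1.03, and 0 rose and 1 fell on the CO2 route, with a median of -0.42. These counts stand beside the same 40.2% and 40.6% of all genes on the diapause route and 14.8% and 13.6% on the CO2 route. Other marker counts on the CO2 route also shifted with single libraries left out. There 1 to 4 muscle, 3 to 7 neuron and 4 to 9 oenocyte and epidermis markers fell. The part of these cell types in the PEPCK result was not tested.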

How the data were processed

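PolyA RNA of 25 queens was sequenced, and the deposited table holds raw read counts that the authors made per exon-sized interval, 1 column per library. Per the submitters' processing notes, Trimmomatic, TopHat and DESeq were used, with no version. Genome build, counting tool, strand and the rule that chose the intervals are not stated in the sources used here, and the totals given are of the table and not of the sequencing. Starts were read as counted from 0, because 5802 of 10031 intervals then matched a coding exon of a deposited gene model in length, against 271 when counted from 1.

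The 22679 intervals were summed to 3861 genes. edgeR 4.0.16 in R 4.3.3 was run with filterByExpr (minimum count 10, minimum total 15; 3793 genes kept, 68 removed), TMM factors, a term per group over all 25 libraries (20 residual degrees of freedom) and quasi-likelihood tests, two-sided, with Benjamini-Hochberg adjustment and calls at 0.05. PEPCK's coefficient of variation, as edgeR estimated it in 1 value for all groups, was 93.3%, against a common value of 51.4%. The observed spread of PEPCK differed widely between groups, as given above. The edgeR tests therefore did not use the smaller spread of the diapause queens. DESeq2 1.42.0, with RLE scaling, no filter, the genetic line as block, groups fitted in pairs, libraries left out and exact permutation (scipy 1.17.1) were alternatives. Log2 CPM used a prior count of 2. The procedure was tested on simulated data: for diapause over mated queens it recovered 75 of 100 genes changed 4-fold and 11 of 100 changed 2-fold, and called 6 of 3593 unchanged genes. Each simulated gene had 1 spread in all groups, and most genes were unchanged. The simulation therefore does not cover the unequal spread of PEPCK or a route on which most genes change.

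Pathway lists and markers are searches of product names, from which hits of another function were removed by name. PEPCK and the lists were chosen with earlier results of these data known. Named are PEPCK, every tested gene of gluconeogenesis and glycolysis, genes from the first 4 by p in the F test in each other list, the 8 highest and 4 lowest r and the 5 highest within groups among genes with a product name, and the flanking genes. Same-line libraries of different groups had a median correlation of deviations of 0.06, so the line was not used as a pairing.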

Additional observations from a re-analysis of the deposited data

Results flagged for a closer look

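Founder post CO2 replicate 2 had 260 CPM of PEPCK, far from the other 4 founders post CO2 at 6.57 to 21.7 CPM. The last interval of LOC100644008 stood out in the same library, at 181 CPM, against 19.8 to 57.5 CPM in the others of its group. Both are single libraries whose gap to the next, as a share of the range of their group, exceeded the critical value for 5 samples, 0.71. Of the 15 groups and quantities examined, these 2 were noted. The critical value assumes normally distributed values, while the gaps were taken on CPM in groups with a wide spread. How often chance alone would exceed it here was therefore not tested. On the log2 scale PEPCK was at 8.02 in this founder, against 2.86 to 4.48 in the other 4, a smaller gap relative to the range. The readings are not independent, since the interval is correlated with PEPCK over the libraries. The PEPCK fold changes without this founder are given with the results above.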

How the results depend on the processing

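Founders had less PEPCK than the other queens, on both routes and in every alternative fit, and each of these calls held. The log2 fold change in founders post diapause against diapause queens ranged from -6.99 to -6.15 over the alternatives and from -7.01 to -5.88 with single libraries left out. In founders post CO2 against CO2-treated queens it ranged from -7.56 to -6.33, and from -8.38 to -5.78 with single libraries left out. Diapause against mated queens was not called in any fit, and its unadjusted edgeR p in the reported fit was 0.0705. The exact permutation test, run with the shallow mated library included, gave a difference of 2.38 and an unadjusted p of 0.0159. The difference between the routes changed sign with single libraries left out, ranging from -0.60 to 2.20. It was negative without CO2-treated replicate 1 (-0.37), founder post CO2 replicates 3 (-0.02), 4 (-0.06) and 5 (-0.04), and founder post diapause replicate 4 (-0.60); the cause was not tested. The genetic line did not pair the libraries. With the line as replicate block, PEPCK was at -6.36 in founders post diapause against diapause queens and -7.34 in founders post CO2 against CO2-treated queens, no PEPCK call changed, and with the block and without the shallow libraries, an alternative added after seeing the data, the value on the CO2 route was -7.56. Numbers of genes called over the whole table were less stable outside the diapause route: genes called higher in founders post CO2 against CO2-treated queens numbered 250 to 765 over alternatives with more than the compared groups in the fit (560 in the reported fit), genes called lower 171 to 590 (515), and genes called higher in diapause against mated queens 5 to 514 (139). With only the compared groups in the fit, 183 genes were called higher and 195 lower on the CO2 route, 56 higher in diapause against mated queens, and of the list genes on the CO2 route 1 of gluconeogenesis and glycolysis rose and 0 fell, and 0 regulators were called. The shallow libraries held 288 and 293 PEPCK counts. Founder post CO2 replicate 4 held 28, at a total of 3454893 in the table.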
